A study of Homo sapiens with 2 samples.

Results

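The promoter peaks described here were those found in the peak list of TRPS1-MT cells and not in that of TRPS1-WT cells. A peak was taken when its midpoint lay within 1000 bp of the canonical transcription start site (TSS) of a protein-coding gene and no TRPS1-WT peak overlapped the 2000 bp on either side of that TSS. This gave 2243 of 325557 TRPS1-MT peaks on chromosomes 1 to 22 and X, at the promoters of 2004 of 19819 genes, or 10.1% of all canonical TSSs tested. These peaks were chosen by their measured positions in both lists, so that the absence of a nearby TRPS1-WT peak is the rule and not a result.

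Both cell populations were HCT116, an established human colorectal carcinoma line of epithelial type with low TRPS1 of its own. They stably expressed Flag-tagged human TRPS1 from the same lentiviral vector, either wild type (TRPS1-WT) or with the R544Q substitution (TRPS1-MT). Sites bound by the tagged protein were mapped with an antibody to Flag by CUT&Tag, in which a tethered transposase cuts DNA next to the bound antibody, and there was 1 library per group. TRPS1 was thus ectopic in both groups, a library of empty-vector cells was not analysed here, and whether the cells were clonal or pooled was not stated in the sources used here. Promoters called bound here are those with a listed peak, and peaks were not checked against a control library. Since each group had 1 library, its genotype and its library cannot be told apart and the groups were not tested against each other.

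TRPS1 is a zinc finger protein with a GATA-type DNA-binding domain that recognises sequences around the letters GATA and is best known as a transcriptional repressor in cartilage, hair follicle and mammary epithelium. A promoter is the stretch of DNA around a TSS where the transcription machinery assembles. Promoters of broadly expressed genes are often CpG islands, rich in the dinucleotide CG and open in most cells, whereas those of many tissue-restricted genes are poor in CG.

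Several features of the rule shape the set. Of the member peaks, 84 lay near more than 1 member TSS, giving 2330 pairs of peak and TSS. Another protein-coding gene started in the opposite direction within 1000 bp of the TSS at 126 member genes (6.29%), so that a peak there cannot be given to 1 gene. At the distance limit, the members just inside had midpoints 998 bp (E2F4, a cell-cycle transcription factor), 999 bp (TP53INP2, a regulator of autophagy) and 999 bp (PLBD1, a phospholipase-like protein) from the TSS. The peaks just outside lay at 1002 bp (LAG3, an inhibitory receptor of T cells) and 1004 bp (OPTC, a proteoglycan of the eye). At the limit set on TRPS1-WT, MAPK13, a p38 kinase, was inside with its nearest TRPS1-WT peak 2004 bp away, and MMP14, a membrane-bound matrix metalloprotease, was outside at 1996 bp. The TRPS1-MT peaks of these genes had 46 and 24 tags at the summit, and the TRPS1-WT peaks near them had 21 and 9.

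The DNA at the summits of several member peaks is shown to let the strongest peaks, the peaks at genes of epithelial and transforming growth factor β (TGF-β) biology and the peaks of other gene families be compared. Each line gives the summit base with 50 bp to its left and right, read from GRCh37 on the strand of the gene, 5′ to 3′. Capitals mark matches to any of 14 consensus sequences searched on both strands, and a match is a description of the letters only. Windows that touched an annotated UTR were not printed. RAB19, LHX6, TNKS1BP1, ERO1B and PPP2R5D were among the 20 strongest members.
RAB19 (GRCh37 chr7:140104554-140104654, plus strand): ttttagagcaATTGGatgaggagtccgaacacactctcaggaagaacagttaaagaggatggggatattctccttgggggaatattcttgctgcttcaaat
LHX6 (GRCh37 chr9:124991623-124991723, minus strand): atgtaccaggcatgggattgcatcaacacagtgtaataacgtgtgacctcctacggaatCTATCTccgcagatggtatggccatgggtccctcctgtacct
TNKS1BP1 (GRCh37 chr11:57092831-57092931, minus strand): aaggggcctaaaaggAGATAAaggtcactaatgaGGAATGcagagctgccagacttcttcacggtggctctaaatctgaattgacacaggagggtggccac
ERO1B (GRCh37 chr1:236445808-236445908, minus strand): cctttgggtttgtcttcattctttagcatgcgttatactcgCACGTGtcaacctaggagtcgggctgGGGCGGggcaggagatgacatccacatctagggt
PPP2R5D (GRCh37 chr6:42952067-42952167, plus strand): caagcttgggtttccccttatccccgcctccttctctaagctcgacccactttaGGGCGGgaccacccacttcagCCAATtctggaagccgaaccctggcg
TGFB2 (GRCh37 chr1:218518524-218518624, plus strand): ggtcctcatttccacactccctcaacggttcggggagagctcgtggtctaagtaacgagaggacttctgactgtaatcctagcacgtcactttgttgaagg
SMAD4 (GRCh37 chr18:48556280-48556380, plus strand): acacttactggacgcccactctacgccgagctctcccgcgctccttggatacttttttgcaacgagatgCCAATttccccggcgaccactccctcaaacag
DSC2 (GRCh37 chr18:28683073-28683173, minus strand): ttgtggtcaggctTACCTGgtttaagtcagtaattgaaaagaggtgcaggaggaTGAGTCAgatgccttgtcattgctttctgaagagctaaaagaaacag
FZD8 (GRCh37 chr10:35931239-35931339, minus strand): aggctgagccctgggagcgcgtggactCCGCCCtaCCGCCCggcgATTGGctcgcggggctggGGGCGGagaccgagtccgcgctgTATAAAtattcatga
OR51Q1 (GRCh37 chr11:5442414-5442514, plus strand): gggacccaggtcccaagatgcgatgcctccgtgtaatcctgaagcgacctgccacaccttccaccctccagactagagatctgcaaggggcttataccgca
CLEC7A (GRCh37 chr12:10283611-10283711, minus strand): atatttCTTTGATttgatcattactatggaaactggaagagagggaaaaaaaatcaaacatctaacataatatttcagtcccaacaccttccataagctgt

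These windows differed widely in base composition, from 31.7% G and C at CLEC7A to 67.3% at FZD8. LHX6 and TNKS1BP1 held a GATA match (CTATCT, the reverse strand of AGATAG, and AGATAA), whereas the others printed held none. FZD8, ERO1B and PPP2R5D held GGGCGG, the letters bound by SP and KLF factors, and TGFB2 and OR51Q1 held no match to any of the 14.

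Member peaks were weak. The number of tags at the summit, recovered from the deposited fold and −log10 p, had a median of 19 (quartiles 14 and 28, lowest 10 and highest 127) over the 2243 members. TRPS1-MT peaks at the 8858 promoters with a peak of both lists had a median of 53 tags (quartiles 30 and 103, highest 5303). The median of all TRPS1-MT peaks was 17, so that members stood close to the ordinary peak of their list. At least 50 tags were reached by 143 members (6.38%, 95% Wilson interval 5.44 to 7.46) and by 53.4% of the peaks at promoters of both lists. The narrowest width of the list, 280 bp, was held by 79.8% of members and 30.0% of the peaks at promoters of both lists. All intervals given here cover counting error only.

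**Figure D1:**
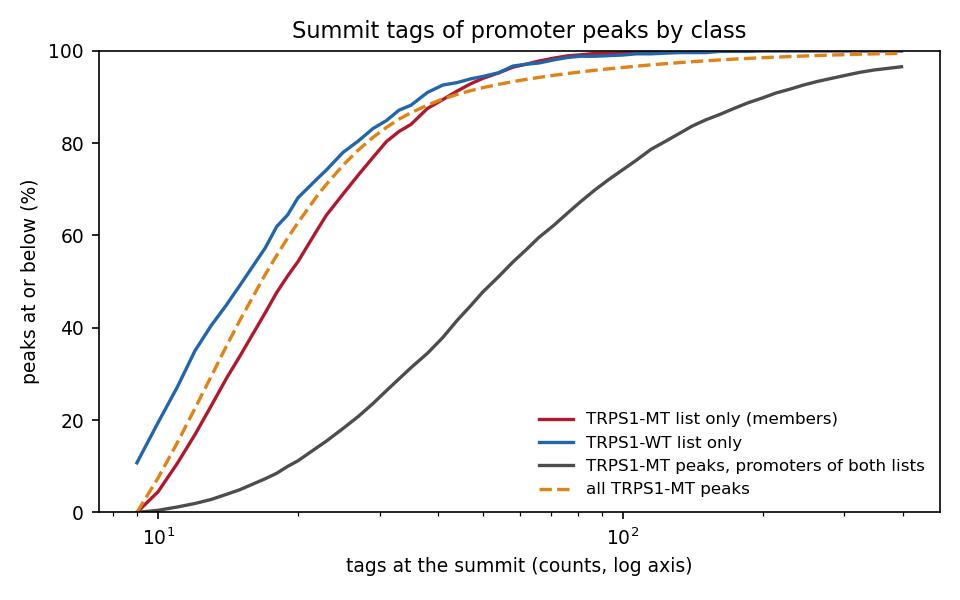
Share of peaks (%) at or below a given number of summit tags (counts, log axis) for member peaks, promoter peaks of the TRPS1-WT list only, TRPS1-MT peaks at promoters of both lists and all TRPS1-MT peaks. The member curve runs close to that of all TRPS1-MT peaks (medians of 19 and 17 tags), far to the left of the curve for promoters of both lists (median of 53).

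Some members had few tags, near the lowest of either list. The lowest summit in the TRPS1-WT list had 9 tags and the lowest in the TRPS1-MT list had 10. At promoters where peaks of both lists overlapped, the TRPS1-MT peak had a median of 1.36 times the tags of the TRPS1-WT peak (quartiles 0.981 and 1.88, 7601 peaks). Divided by that ratio, the tags of 378 members (16.9%, 15.4 to 18.5) fell below 9, the fewest that any listed TRPS1-WT peak had. None of these members had more than 12 tags. Apart from this division, tags were not scaled between the libraries. The lowest background of a peak was 1.77 tags in TRPS1-MT and 1.10 in TRPS1-WT. The narrowest peaks were 280 and 168 bp wide in the same order. The ratio of 1.36 came only from overlapping peaks at promoters of both lists, and whether it holds at other promoters was not tested. It is not a measure of binding or depth.

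The strongest members were found at genes of varied function. SPG21 encodes maspardin, an endosomal protein, and its peak (chr15:65282136-65282620, GRCh37) had 118 tags (exact Poisson interval 97.7 to 141.3) with the summit 127 bp upstream of the TSS. The nearest TRPS1-WT peak lay 5033 bp from this TSS and had 20 tags. RAB19, a small GTPase of the Rab family, had 119 tags (98.6 to 142.4) at chr7:140104133-140104881, with the summit in an intron 746 bp downstream of the TSS. GPD1, the cytosolic glycerol-3-phosphate dehydrogenase, had 90 tags (72.4 to 110.6) at chr12:50497693-50498022, with the summit in its coding exon 43 bp downstream of the TSS. SLU7, a pre-mRNA splicing factor, had 86 tags (68.8 to 106.2) at chr5:159845778-159846189, in an intron 80 bp downstream of the TSS. The counting intervals of GPD1 and SLU7 overlapped widely, so that their order is not settled.

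Other strong members were spread over RNA processing, cilia, metabolism and signalling. SNRNP35, a protein of the minor spliceosome, had 70 tags, and PSPC1, a paraspeckle protein, had 73. The cilia and flagella genes MNS1 and CFAP91 had 79 and 61 tags, the latter in a peak that also met the rule for ENSG00000285585. ERO1B, an oxidase of the endoplasmic reticulum, had 86 tags 600 bp upstream of its TSS and a second member peak of 26 tags in an intron. Among signalling genes, FGFR2, a fibroblast growth factor receptor, had 55 tags at chr10:123358314-123358602, 440 bp upstream of the TSS. PPP2R5D, a regulatory subunit of protein phosphatase 2A, had 82 tags, PELI2, a ubiquitin ligase of Toll-like receptor signalling, had 75, and DDIT4L, an inhibitor of mTOR signalling, had 67.

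Some strong members had a nearest TRPS1-WT peak with a similar number of unscaled tags, close by or farther away. TNKS1BP1, a tankyrase-binding protein, had 104 tags (85.0 to 126.0), while the nearest TRPS1-WT peak had 84 tags and lay 2053 bp from the TSS, just beyond the limit. NCKAP5L, a microtubule-associated protein, had 65 tags (50.2 to 82.8), and its nearest TRPS1-WT peak, 14223 bp from the TSS, had 62. At the other end, the nearest TRPS1-WT peaks of PELI2 and FGFR2 had 9 tags each.

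**Figure D2:**
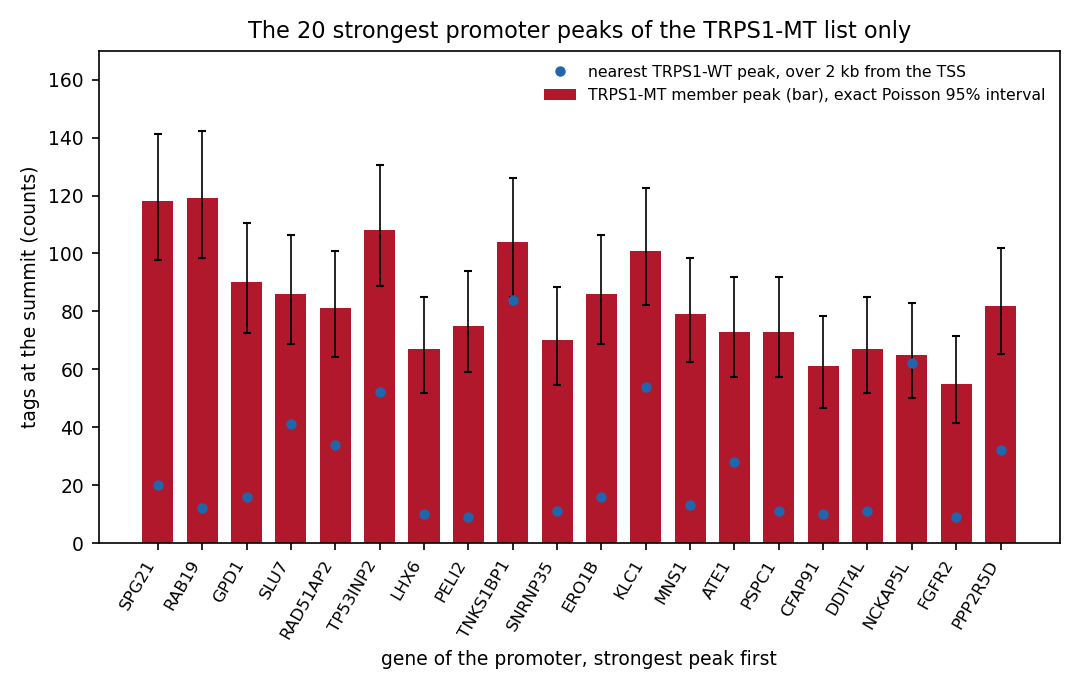
Tags at the summit (counts) of the 20 strongest member peaks, ordered by −log10 p, with exact 95% Poisson intervals as error bars. Blue points give the tags of the nearest TRPS1-WT peak, which lies over 2000 bp from the TSS, and range from 9 (PELI2, FGFR2) to 84 (TNKS1BP1).

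The size of the set changed when the longer peak list was cut. The TRPS1-MT list held 325557 peaks, or 0.214 per 2000 bp of chromosome, and the TRPS1-WT list held 173296, or 0.114 per 2000 bp. The mirror-image class, promoters with a peak of the TRPS1-WT list only, held 754 peaks at 718 genes (3.62% of TSSs). Size was not in simple proportion to length, with 6.89 member peaks per 1000 TRPS1-MT peaks against 4.35 TRPS1-WT-only promoter peaks per 1000 TRPS1-WT peaks. When the 173296 strongest peaks were taken from each list, 1301 peaks at 1224 genes (6.18% of TSSs) were found in TRPS1-MT only and 1303 peaks at 1233 genes (6.22%) in TRPS1-WT only. The TRPS1-WT list was left whole and only the TRPS1-MT list was cut, so that these 1301 TRPS1-MT peaks are members by construction. The cut left no TRPS1-MT peak with fewer than 16 tags. TRPS1-MT-only promoters thus outnumbered TRPS1-WT-only promoters with the full lists and not with lists of equal length. Removing TRPS1-MT peaks lowers the TRPS1-MT-only class and raises the TRPS1-WT-only class by construction. The cause of the excess was not tested.

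The same rule was also applied to positions 50 kb upstream and downstream of every canonical TSS, a comparison added after seeing the data. A TRPS1-MT-only peak was found at 5768 of these 39629 positions (14.6%, 14.2 to 14.9), more often than at the TSSs themselves (10.1%, 9.70 to 10.5). By contrast, peaks of both lists were found at 7.47% of the shifted positions and at 44.7% of TSSs. Many TSSs had a TRPS1-WT peak and could not meet the rule. Among positions with no TRPS1-WT peak within 2000 bp, the order turned around, with a TRPS1-MT peak at 2004 of 7697 TSSs (26.0%, 25.1 to 27.0) and at 20.4% (19.9 to 20.9) of the 28305 shifted positions.

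Member summits were spread more evenly around the TSS than those of other promoter peaks. The median summit lay 49 bp upstream of the TSS (quartiles of −451.5 and 483 bp, where negative is upstream). Within 100 bp of the TSS lay 11.9% of member summits (10.7 to 13.4), 17.4% of summits at promoters of both lists (16.7 to 18.2) and 19.1% of TRPS1-WT-only summits (16.5 to 22.1). Within 500 bp the shares were 53.3%, 70.7% and 63.4%. A peak covered the TSS itself at 19.1% of members (17.5 to 20.8), 22.3% of TRPS1-WT-only peaks (19.5 to 25.4) and 45.2% of the peaks at promoters of both lists (44.2 to 46.2). Peak widths differed as well, with medians of 280, 168 and 462.5 bp in the same order, and their part in this was not tested. The summit lay downstream of the TSS in 46.7% of members (44.6 to 48.7), 42.8% of TRPS1-WT-only peaks (39.4 to 46.4) and 40.2% of the peaks at promoters of both lists (39.3 to 41.2). On both measures the intervals of members and TRPS1-WT-only peaks overlapped. In the bin from 200 bp upstream to the TSS, where both comparison classes were highest, were 13.0% of member summits, against 21.9% at promoters of both lists and 22.5% in the TRPS1-WT-only class.

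**Figure D3:**
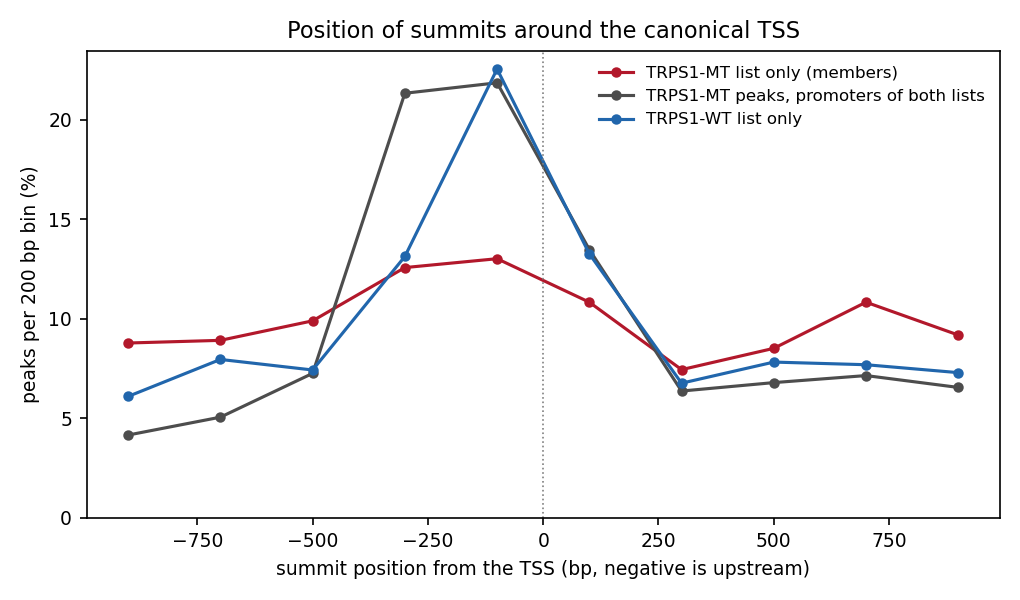
Share of peaks (%) in each 200 bp bin of summit position from the canonical TSS (bp, negative is upstream) for member peaks, TRPS1-MT peaks at promoters of both lists and peaks of the TRPS1-WT list only. The member line stays between 7.45% and 13.0% in every bin, while both other lines exceed 20% in the bin just upstream of the TSS.

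By annotation of the canonical transcript, 1199 member summits (53.5%) were upstream of the gene, 722 (32.2%) in an intron, 166 (7.40%) in a UTR exon and 156 (6.95%) in a coding exon. With lists of equal length the difference from TRPS1-WT was also seen, since 13.0% of TRPS1-MT-only summits (11.3 to 14.9) and 19.3% of TRPS1-WT-only summits (17.3 to 21.6) lay within 100 bp of the TSS. The share downstream of the TSS was then 44.6% (41.9 to 47.3) against 43.1% (40.4 to 45.8), with overlapping intervals.

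Member promoters were less CpG-rich than those bound in both lists. The CpG ratio, the observed over the expected number of CG dinucleotides within 500 bp of the TSS, had a median of 0.658 (0.638 to 0.673) at member promoters, 0.780 (0.777 to 0.784) at promoters of both lists and 0.676 (0.649 to 0.705) at TRPS1-WT-only promoters. Promoters with no peak of either list within 2000 bp had a median of 0.418 (0.395 to 0.441). Member promoters thus lay between bound and unbound promoters, and their interval overlapped that of the TRPS1-WT-only promoters.

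Along the scale of CpG ratio, the share of TRPS1-MT-only promoters changed much less than that of promoters bound in both lists. When the TSSs were cut into 10 equal groups (deciles) by CpG ratio, 300 of 1982 (15.1%, 13.6 to 16.8) in decile 1, the lowest, were members, and decile 2 gave the same count. The share was lowest in decile 6, at 6.61% (5.60 to 7.79), and 9.49% (8.27 to 10.9) in decile 10. Promoters with peaks of both lists went from 7.21% in decile 1 to 63.1% in decile 7 and were 52.5% in decile 10. Members accordingly made up 58.9% of the promoters with a TRPS1-MT peak in decile 1 and 9.31% in decile 6. With lists of equal length, the TRPS1-MT-only and TRPS1-WT-only shares were 7.92% and 7.11% in decile 1 and 6.56% and 6.26% in decile 10.

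The stronger members were at CpG-richer promoters. The 602 members with 28 or more tags had a median CpG ratio of 0.761 (0.733 to 0.778), and the 517 members with 10 to 13 tags had 0.529 (0.437 to 0.609). Summits within 100 bp of the TSS made up 16.3% (13.5 to 19.4) of the former and 9.09% (6.91 to 11.9) of the latter. Promoters of deciles 1 to 3 made up 24.3% (21.0 to 27.8) of the former and 51.1% (46.8 to 55.3) of the latter. Of the 143 members with at least 50 tags, 19 (13.3%) were at promoters of deciles 1 to 3. Examples were GPD1, at a CpG ratio of 0.19, and the chemokine receptor gene CXCR3, at 0.14.

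TRPS1-WT peaks were often not far from the member promoters. From the TSS of a member gene to the nearest TRPS1-WT peak the median distance was 5776.5 bp (quartiles 3507.5 and 10280 bp, highest 109847 bp). For promoters with no peak of either list the median was 8769 bp. Each member peak was also given the distance from its nearest member TSS to a TRPS1-WT peak. This was at most 3 kb for 403 peaks (18.0%), 5 kb for 963 (42.9%) and 10 kb for 1653 (73.7%), and beyond 50 kb for only 26. Along the chromosomes the TRPS1-WT list held a peak per 17.5 kb.

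Some member genes also had a TRPS1-WT peak at another start. Of the 2004 genes, 1276 had another annotated TSS more than 2000 bp from the canonical one, and 542 of these (42.5%, 39.8 to 45.2) had a TRPS1-WT peak within 1000 bp of it. Among genes with no peak at the canonical TSS the share was 34.1% (32.1 to 36.1). A TRPS1-MT peak lay at another TSS in 57.8% of these member genes. A gene named here as TRPS1-MT-only is therefore so at its canonical promoter and not over the whole gene.

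The DNA under member summits was searched for 14 short consensus sequences in 201 bp windows, and windows of the same size centred 1000 bp to either side served as flanks. A GATA sequence (AGATAA or its variant AGATAG, and likewise TGATAA or its variant TGATAG) was found at 20.5% of member summits (18.8 to 22.2) and 23.5% of their flanks (22.2 to 24.7). At summits of promoters bound in both lists the share was 17.8%, and at all canonical TSSs it was 10.0% (9.59 to 10.4). GATA letters, the class that TRPS1 recognises, were thus less frequent under member summits than beside them, but more frequent than in windows of the same size at the TSS of promoters without a peak (16.0%). The fraction of G and C was a median of 55.2% at member summits and 50.2% to 50.7% in the flanks, and its part in this difference was not tested.

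Of the 14 sequences, 5 were more frequent at member summits than beside them, 4 were less frequent, and for 5 the interval of the difference included 0. Some of these directions depended on the setting. With 50 bp on each side, the interval included 0 for TGACGTCA, AP-1, FOX (TGTTTAC or TATTTAC) and the ZEB and SNAI E-box. With −log10 p of at least 10, it included 0 for AP-1, FOX and that E-box. GGGCGG, bound by SP and KLF factors, was found at 20.7% of member summits (19.1 to 22.4) and 16.1% of flanks (15.1 to 17.2), against 37.2% of summits at promoters of both lists, 34.4% of TRPS1-WT-only summits and 53.8% of all canonical TSSs. CCGGAA, bound by ETS factors, was found at 7.40% of member summits (6.39 to 8.56), 4.48% of flanks (3.91 to 5.13) and 17.9% of all canonical TSSs. At the TSS of promoters without a peak both were more frequent than at member summits, with 35.8% for GGGCGG and 8.89% for CCGGAA. The ETS sequence was found at 9.97% (7.82 to 12.6) of the members with 28 or more tags and 5.61% (3.93 to 7.94) of those with 10 to 13. With lists of equal length, GGGCGG was found at 23.1% (20.9 to 25.4) of TRPS1-MT-only summits and 35.3% (32.8 to 37.9) of TRPS1-WT-only summits. This was the widest gap between these classes among the 14 sequences. With the full lists, the median fraction of G and C was 55.2% at member summits and 59.7% at TRPS1-WT-only summits. The part of base composition and of distance from the TSS in this gap was not tested. Other sequences of general promoter factors did not share the rise over the flanks. CCAAT, bound by NFY, was found at 20.3% of member summits and 20.5% of flanks, a difference of −0.20 percentage points (−2.22 to 1.87). The differences were −0.29 (−1.16 to 0.66) for AAGATGG, bound by YY1, and 0.29 (−0.10 to 0.78) for GCATGCGC, bound by NRF1. The letters of the TATA box (TATAAA) were less frequent at the summits, with a difference of −2.41 points (−3.83 to −0.92). TGACGTCA, the cAMP response element, was more frequent, with a difference of 0.58 points (0.23 to 1.05).

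Sequences bound by factors of epithelial to mesenchymal transition (EMT) differed in direction and with the background. The E-box CAGGTA or CAGGTG, bound by ZEB and SNAI repressors, was found at 25.5% of member summits (23.7 to 27.3), 27.9% of flanks (26.6 to 29.2) and 20.3% of all canonical TSSs. The AP-1 sequence TGACTCA or TGAGTCA was found at 3.08% (2.44 to 3.87) of summits, 2.27% (1.88 to 2.75) of flanks and 2.13% of all canonical TSSs (1.94 to 2.34), a difference between summits and flanks of 0.80 percentage points (0.0046 to 1.69). GGAATG, bound by TEAD factors, was found at 10.3% of summits and 9.43% of flanks, with an interval of the difference of −0.66 to 2.38 points. Against the TSS of promoters without a peak (8.11%) its difference was 2.14 points (0.68 to 3.68). The E-box CACGTG, bound by MYC, was found at 4.59% of summits and 3.30% of flanks, a difference of 1.29 points (0.32 to 2.36).

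Genes of 40 lists were examined in turn, and the share with a TRPS1-MT-only promoter peak was read against the 10.1% of all TSSs. For 36 lists the Wilson interval of the share included it. C-type lectins (7 of 31, 22.6%, 11.4 to 39.8), chemokines and their receptors (11 of 61, 18.0%, 10.4 to 29.5) and solute carriers (50 of 371, 13.5%, 10.4 to 17.3) lay above it, and mitochondrial ribosomal proteins (2 of 78, 2.56%, 0.706 to 8.88) below. With 40 lists looked at, some intervals miss the overall share by counting error alone, and nothing particular to these lists is claimed.

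Of 40 genes of the EMT signature named in the study, 4 (10.0%, 3.96 to 23.1) had a TRPS1-MT-only peak, 9 had peaks of both lists and 2 a TRPS1-WT-only peak. When the lists were of equal length, 1 of the 40 (2.5%, 0.443 to 12.9) was TRPS1-MT-only, against 6.18% of all TSSs. TRPS1-WT-only genes were then 4 (10.0%), against 6.22% of all TSSs. The interval of the TRPS1-MT-only share included that of all TSSs, so that no order of these small counts is claimed. With −log10 p of at least 10 in TRPS1-MT, 1 of the 40 met the rule as well. The 4 members with the full lists were weak. FZD7, a Wnt receptor, had 18 tags (10.7 to 28.4) at chr2:202898068-202898347, 436 bp upstream of its TSS. MMP7, the secreted matrix metalloprotease matrilysin, had 17 tags (9.90 to 27.2) at chr11:102401981-102402260, 643 bp upstream. ZEB2, a repressor of E-cadherin, had 13 tags (6.92 to 22.2) at chr2:145277718-145277997 upstream of its TSS, with a TRPS1-WT peak of 9 tags 2713 bp from the TSS. DKK3, a secreted protein of the Dickkopf family, had 10 tags (4.80 to 18.4), the lowest number in the list, in an intron.

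ZEB2 was the only member of 16 EMT transcription factors. ZEB1, its paralog, had peaks of both lists within 1000 bp of its canonical TSS, with 72 tags in TRPS1-MT and 54 in TRPS1-WT, and SNAI2, another E-cadherin repressor, had 104 and 94. These genes were not members for that reason. SNAI1, of the same family, had no peak of either list within 2000 bp of its TSS.

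Of 32 genes of epithelial junctions and keratins, 4 were members (12.5%, 4.97 to 28.1). DSC2, the desmosomal cadherin desmocollin, had 3 member peaks of 57, 42 and 30 tags. The strongest, at chr18:28682885-28683193, lay 739 bp upstream of the TSS, but a TRPS1-WT peak of 19 tags lay only 2081 bp from that TSS. CLDN1, a tight junction claudin, had 25 tags (16.2 to 36.9) at chr3:190039760-190040039 in a UTR exon. LLGL2, a polarity protein, and DSP, the desmosomal linker desmoplakin, had 15 and 14 tags. Among 21 regulators of the epithelial state, RAB25, an epithelial Rab GTPase, had 57 tags (43.2 to 73.9) at chr1:156030815-156031213, 44 bp downstream of the TSS.

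None of 7 epithelial markers by which HCT116 is commonly recognised was a member, a share of 0% with an upper limit of 35.4%. EPCAM and CDX2 had peaks of both lists, with 47 and 28 tags in TRPS1-MT and 18 and 50 in TRPS1-WT. KRT19 had a TRPS1-MT peak of 210 tags but was excluded by a TRPS1-WT peak 1787 bp from its TSS. KRT8 had a TRPS1-WT peak of 63 tags 19 bp from its TSS and no TRPS1-MT midpoint within 1000 bp. CDH1 and CDH17 had no midpoint of either list within 1000 bp, and KRT18 had no peak of either list within 2000 bp. Peaks are not a measure of expression, so that the cell type cannot be read from them.

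TGF-β ligands act through pairs of type I and type II receptors and SMAD mediators. Of 41 such genes, 4 were members (9.76%, 3.86 to 22.5), among them ligands, a receptor and a mediator. TGFB2, a ligand, had 35 tags (24.4 to 48.7) at chr1:218518410-218518689, 104 bp upstream of the TSS. TGFBR1, the type I receptor, had 23 (14.6 to 34.5) at chr9:101866841-101867359, 295 bp upstream. SMAD4, the shared mediator, had 31 (21.1 to 44.0) at chr18:48556135-48556414, 253 bp upstream. INHBE, an inhibin subunit, had 26 (17.0 to 38.1) in an intron. For these 4 genes the nearest TRPS1-WT peak lay 3858 to 6644 bp from the TSS and had between 11 and 64 tags. TGFBR2, the type II receptor, had peaks of both lists, with 188 tags in TRPS1-MT and 267 in TRPS1-WT.

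Among 30 mesenchymal and matrix genes, 3 were members (10.0%, 3.46 to 25.6). TGFBI, a matrix protein induced by TGF-β, had 21 tags (13.0 to 32.1), and its nearest TRPS1-WT peak, 8303 bp away, had 105. COL6A3, a chain of collagen VI, had member peaks of 19 and 17 tags in an intron. Fibronectin (FN1) had a TRPS1-MT peak of 70 tags and was excluded by a TRPS1-WT peak 1775 bp from its TSS.

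Of 152 genes that the study named as changed in RNA in cells of these genotypes, 21 had a TRPS1-MT-only promoter peak (13.8%, 9.22 to 20.2). This interval included the 10.1% of all TSSs. Peaks of both lists were found at 66 (43.4%, against 44.7% of all TSSs) and a TRPS1-WT-only peak at 8 (5.26%, against 3.62%). With lists of equal length, 14 genes of this RNA list (9.21%, 5.57 to 14.9) were TRPS1-MT-only and 12 (7.89%) TRPS1-WT-only. The shares of all TSSs were then 6.18% and 6.22%. Because the study drew this list from RNA of cells with the same constructs, it is no independent evidence. Among its members, PLA2G4A, the cytosolic phospholipase A2, had 51 tags (38.0 to 67.1) at chr1:186798014-186798511. SYDE1, a GTPase-activating protein, had 45 tags. Others ranged down to 10 tags at SYK, a tyrosine kinase, and FA2H, a fatty acid hydroxylase. They included the Wnt pathway genes WNT7A (26 tags) and VANGL2 (28 tags), the calcium channel TRPV6 (24 tags), the adaptor subunit AP1M2 (24 tags) and the coagulation factor F10 (11 tags). KRT86, a hair keratin, had 17 tags, while its nearest TRPS1-WT peak had 302 and lay 5712 bp from the TSS.

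Wnt ligands and Frizzled receptors had 6 members of 29 genes (20.7%, 9.85 to 38.4). The receptor FZD8 had 37 tags (26.1 to 51.0) at chr10:35931070-35931495, 65 bp upstream of the TSS, and WNT10A had 3 member peaks of 24, 20 and 14 tags. With lists of equal length, 5 of the 29 genes were TRPS1-MT-only (17.2%, 7.60 to 34.5, against 6.18% of all TSSs) and 1 was TRPS1-WT-only. The interval then lay above 6.18% for 2 of the 40 gene lists, the other being chemokines and their receptors (8 of 61, 13.1%). For 38 gene lists it included 6.18%, among them solute carriers (27 of 371, 7.28%) and C-type lectins. With 40 gene lists looked at, nothing particular to the Wnt or chemokine genes is claimed. Of 24 claudins, 5 were members (20.8%, 9.24 to 40.5), CLDN15 being the strongest with 30 tags. The interval included the 10.1% of all TSSs. With lists of equal length, 3 of the 24 claudins (12.5%, 4.34 to 31.0) were TRPS1-MT-only and 0 were TRPS1-WT-only. Among the 11 member genes of the chemokine list, CXCR3, a receptor of T cells, had 53 tags (39.7 to 69.3) at chrX:70838173-70838585, 71 bp upstream of its TSS, and CCL26, a chemokine of eosinophils, had 47 (34.5 to 62.5).

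The C-type lectins, receptors of innate immune cells that bind sugars, had 7 members, and their highest peaks were CLEC4C with 36 tags (25.2 to 49.8) and CLEC7A with 26 (17.0 to 38.1). With lists of equal length 3 of the 31 met the rule. These genes had a median CpG ratio of 0.252 and were rarely bound in both lists (3 of 31). Olfactory receptors, the large family of odorant receptors, had 48 members of 405 (11.9%, 9.06 to 15.4), against 18 with a TRPS1-WT-only peak and 11 with peaks of both lists, and the interval included the 10.1% of all TSSs. Their strongest, OR51Q1, had 3 peaks of 39, 37 and 29 tags. With lists of equal length 24 olfactory receptors were TRPS1-MT-only and 25 were TRPS1-WT-only.

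Genes that all cells use were mostly bound in both lists. Cytosolic ribosomal protein genes had 4 members of 77 (5.19%, 2.04 to 12.6), namely RPS15 (29 tags), RPL29 (44 tags), RPLP1 (51 tags) and RPS4X (17 tags), while 56 had peaks of both lists. Proteasome subunits had 1 member of 50 (2.0%, 0.354 to 10.5), PSMC2, with 2 peaks of 50 and 46 tags, while 42 had peaks of both lists. Of the mitochondrial ribosomal protein genes 63 of 78 had peaks of both lists. The intervals of the cytosolic ribosomal and proteasome lists included the 10.1% of all TSSs, and with lists of equal length those of all 3 lists included the 6.18%. Zinc finger genes had 53 members of 562 (9.43%, 7.28 to 12.1), led by ZNF595 with 53 tags, and 291 had peaks of both lists.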

How the data were processed

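Flag CUT&Tag peaks of 1 TRPS1-WT and 1 TRPS1-MT library of HCT116 cells were analysed, grouped by genotype as in the labels. Reads were cleaned by the authors and aligned with Bowtie 0.12.8 to hg19, MACS was run on each library and HOMER served for annotation. No control library is named in the methods or labels. The deposited lists hold a score, a fold (a ratio of summit pileup to local background), −log10 p and −log10 q per peak and the distance to the summit in bp. The methods name a MACS release before MACS2, whereas the q value per peak is of the MACS2 layout, so recovery of tags assumed the MACS2 model. Summit tags were recovered as the whole number that met the deposited −log10 p within 0.01, for all 2243 members and all but 3 TRPS1-WT and 2 TRPS1-MT peaks. Fold, −log10 p and tags were not scaled between libraries by the authors. The smallest −log10 q in each list was 4.00. Read depth was not stated in these sources, and the length of a list does not measure it. The lowest background and narrowest width of each list, given above, were not used to estimate it.

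All 23 chromosomes of each list ended within their GRCh37 lengths. Canonical TSSs came from GENCODE release 44 mapped to GRCh37. Consensus sequences were counted 100 bp on each side of the summit, with flanks 1000 bp away, and CpG ratios 500 bp on each side of the TSS. The 20 strongest members, all members of the EMT, epithelial, mesenchymal, TGF-β and RNA lists, up to 4 strongest of the other lists and the peaks nearest each limit were named, except some that are not reported here. KRT8, KRT18, KRT19, CDH1, CDH17, FN1, SNAI1, SNAI2, ZEB1, EPCAM, CDX2 and TGFBR2 are not members and were named after their values were seen. The members and lists were chosen with earlier results of these data known. Of the RNA list, 20 names had no match, and 1 of the EMT signature.

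Shares have Wilson intervals, medians order-statistic intervals and tags exact Poisson intervals at the 95% level, which cover counting error only, since tags without molecular identifiers are not independent molecules. No p-value was computed. Alternatives were other distances, −log10 p of at least 10, lists of equal length, other windows and another background. Functions were tested on simulated data. Scripts ran under Python 3.11.15 with scipy 1.17.1, numpy 2.4.6, matplotlib 3.10.9 and pandas 2.3.3.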

Additional observations from a re-analysis of the deposited data

How the results depend on the processing

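The number of member peaks, 2243, was 1281 when no TRPS1-WT peak was allowed within 5 kb, 5219 when only the TRPS1-MT peak itself had to be free of a TRPS1-WT peak, 1197 with midpoints within 500 bp, 1424 with −log10 p of at least 10 in TRPS1-MT, 1301 with lists of equal length and 1428 with no TRPS1-WT peak at any TSS of the gene. With the other 4 settings (a limit of 1 kb, summits in place of midpoints, −log10 p of at least 10 in both lists, every canonical TSS free of TRPS1-WT) it was 1836 to 2818. With −log10 p of at least 10, lists of equal length and the limit of 5 kb in turn, the share of TSSs was 6.67%, 6.18% and 5.69%, and the median summit tags were 25, 26 and 18. At positions 50 kb away, a comparison chosen after seeing the data, the share was 14.6%. The share of summits downstream of the TSS was 44.6% with lists of equal length. The median CpG ratio was 0.691, 0.692 and, in a window of 250 bp upstream to 50 bp downstream, 0.688. The share of member genes with a TRPS1-WT peak at another TSS was 35.1% with the limit of 5 kb and 33.2% with 500 bp around the other TSS. These settings take fewer peaks or other windows by construction.

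Consensus shares depended on the background. Against windows at the TSS of promoters without a peak, in place of flanks, the difference turned from lower to higher for GATA (4.42 percentage points) and FOX (1.12), and from higher to lower for SP and KLF (−15.1) and ETS (−1.49), and the cause was not tested. Of the other comparisons of consensus sequences, 29 held and 9 moved, and of 80 list shares 47 held and 33 moved. No paired analysis was possible because each group had 1 library, and no replicate could be left out. With peaks alone, read depth and tags under unlisted sites were not analysed here.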

Other observations

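Several genes carried more than 1 TRPS1-MT-only peak within 1000 bp of the canonical TSS. Of the 2004 genes, 306 (15.3%) did, and 20 had 3. Those named here were chosen after their counts were seen: they included DDAH1, an enzyme that breaks down methylated arginines, ARHGEF3, a guanine nucleotide exchange factor, UMPS, which completes the synthesis of uridine monophosphate, POMP, an assembly factor of the proteasome, EDC3, a factor of mRNA decapping, and STK33, a serine/threonine kinase.

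By chromosome, the share of canonical TSSs with a TRPS1-MT-only peak ranged from 8.12% (6.21 to 10.5) on chromosome 14 to 13.5% (10.6 to 17.0) on chromosome 22, and it was 9.99% (8.14 to 12.2) on chromosome X. On chromosome 22 the TRPS1-WT-only share was also the highest of all, at 6.53%, and peaks of both lists stood at 39.2% of TSSs.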
